A study of Mus musculus with 4 samples.

Results

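The genes described here are 10 CC chemokines that draw monocytes and related blood cells into tissue: Ccl2, Ccl3, Ccl4, Ccl5, Ccl6, Ccl7, Ccl8, Ccl9, Ccl12 and Ccl24. They were taken as all probe sets (groups of array probes against one transcript) that the array annotation assigns to 1 of these symbols, which gave 12 of 22690 probe sets and 10 of 12393 genes. Ccl6 and Ccl9 had a second probe set, and no probe set that names several genes included a member.

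Expression was measured in macrophages that mouse mammary tissue yielded by sorting on YFP, which per the labels these animals expressed in macrophages. There were 4 groups with 1 array each: macrophages of early-stage PyMT mammary tumors with 2 copies of Ets2 deleted, macrophages of such tumors with 1 copy of Ets2 (titled wild type), macrophages of normal remodeling glands with 2 copies of Ets2 deleted, and macrophages of remodeling glands labelled wild type. PyMT is the polyoma middle T oncogene, which drives breast cancer in this mouse model, and Ets2 belongs to the ETS transcription factors. The labels do not name the driver of the deletion or of YFP, the strain, the age or the number of animals behind each RNA sample, and the tumor and remodeling controls differ in Ets2 copies as labelled.

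CC chemokines are small secreted proteins with 2 adjacent cysteines near the start, and they act through G protein-coupled receptors on white blood cells. Ccl2, Ccl7 and mouse Ccl12 are ligands of Ccr2, the receptor that inflammatory monocytes use to leave the bone marrow and enter inflamed tissue and tumors. Ccl3 and Ccl5 act on Ccr1 among others, Ccl6 and Ccl9 on Ccr1, mouse Ccl8 on Ccr8 among others, and Ccl24, also called eotaxin-2, on Ccr3 of eosinophils. Macrophages make many of them as well as responding to them.

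With 1 array per group there was no replicate spread, no test was run, and "higher" and "lower" describe these arrays. Values are log2 expression values as deposited, so 1 unit is a 2-fold difference. A difference was counted where the brighter array was at or above its own median, and called at 2-fold or more. All differences are Ets2-deficient minus Ets2-expressing, or tumor minus remodeling. The only error at hand was technical: the pooled standard deviation (SD) of a log2 difference between probe sets of the same gene was 0.338 for the Ets2 comparison in tumor, 0.278 for that in remodeling glands, 0.410 for the tissue comparison on the Ets2-expressing arrays and 0.320 for that on the Ets2-deficient arrays. It leaves out animals, sorts and amplification. Values named below as beyond the probe-set spread exceed 1 such SD.

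In the order tumor Ets2-deficient, tumor Ets2-expressing, remodeling Ets2-deficient and remodeling Ets2-expressing, array medians were 6.30, 6.22, 5.98 and 6.17 log2. The median of 14 macrophage markers was 11.82, 11.80, 11.90 and 11.93 log2, with none past 2-fold in any comparison and Itgam alone below the array medians. The 1 Ets2 probe set read 12.67, 12.77, 12.97 and 13.24 log2, high also where Ets2 is labelled deleted. The labels do not say which exons were removed, so this probe set does not check them. The difference between the 3' and 5' probe sets of Actb, a measure of transcript length after amplification, was 3.54, 3.30, 2.96 and 2.72 log2. For Gapdh it was 2.27, 2.45, 1.80 and 1.61 log2, also larger on both tumor arrays, and for Tfrc it was 5.27, 5.03, 5.96 and 5.75 log2, smaller there.

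All 12 probe sets lay at or above the 75th percentile of all 4 arrays, so none was limited by background and all 10 genes counted in every comparison. Among the Ccr2 ligands, Ccl7 (monocyte chemotactic protein 3) differed most between arrays. Ccl7 read 10.61 log2 on the tumor array labelled Ets2-deficient and 10.35 on the Ets2-expressing tumor array, against 11.53 and 12.47 on the remodeling arrays labelled Ets2-deficient and Ets2-expressing. Ccl2 (monocyte chemotactic protein 1), the main monocyte attractant of many tumors, read 10.95 and 10.94 log2 on the same tumor arrays, against 11.97 and 12.50 on the remodeling arrays. Both remodeling arrays thus lay above both tumor arrays for Ccl2 and Ccl7, with the remodeling Ets2-expressing array on top. The tumor values differed by less than the probe-set spread for either gene, while each other step in the order exceeded it.

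Ccl12 and Ccl8, the other members of the monocyte chemotactic protein family, did not share this pattern. Ccl12 read 10.65 and 10.44 log2 on the tumor arrays (Ets2-deficient, then Ets2-expressing) and 10.55 and 10.50 on the remodeling arrays in the same order, a range of 0.212 that is within the probe-set spread. Ccl8 read 13.10 and 13.01 log2 on the tumor arrays against 12.70 and 12.62 on the remodeling arrays. Ccl8 was thus slightly higher on both tumor arrays, by 0.40 log2 between the Ets2-deficient arrays and 0.39 between the Ets2-expressing ones, the first beyond the probe-set spread and the second within it. The difference between the Ets2-deficient arrays depended on the scaling, at 0.08 log2 after centring on array medians and 0.17 after centring on hybridization controls, both within the spread.

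Ccl3 and Ccl4, the macrophage inflammatory proteins 1-alpha and 1-beta, were both highest on the remodeling Ets2-expressing array. Ccl3 read 11.65 and 11.12 log2 on the tumor Ets2-deficient and Ets2-expressing arrays, against 11.87 and 12.52 on the remodeling ones. Ccl4 read 9.13 and 9.37 log2 on the tumor arrays against 9.72 and 10.51 on the remodeling arrays. The order of the 2 tumor arrays was opposite for these genes: Ccl3 was higher on the Ets2-deficient tumor array, beyond the probe-set spread, and Ccl4 lower there, within it. Ccl5 (RANTES), which T cells and NK cells also make in quantity, ran the other way from Ccl3 and Ccl4, at 11.10 and 11.36 log2 on the tumor arrays against 10.84 and 10.40 on the remodeling arrays. Its neighbours in order differed by 0.26 to 0.43 log2, with only the step between the remodeling arrays beyond the spread.

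Ccl6 and Ccl9, mouse chemokines that signal through Ccr1, were nearly level on the probe set used for each. Ccl6 read 13.20 and 13.04 log2 on the tumor arrays (Ets2-deficient, then Ets2-expressing), and 13.16 and 13.26 on the remodeling arrays. Its second probe set read 12.11 and 12.31 log2 against 12.04 and 12.21, a range of 0.276. Ccl9 read 13.09 and 13.20 log2 on the tumor arrays, against 13.09 and 13.10 on the remodeling arrays. The second Ccl9 probe set, drawn on the same sequence accession, was less even, at 11.002 and 10.35 log2 on the tumor arrays against 10.73 and 11.20 on the remodeling arrays. The 2 Ccl9 probe sets therefore disagree on whether Ccl9 varied, the dimmer one over a range of 0.845 log2 and the brighter over 0.110.

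Flat values were the rule at such signal strength. Of 59 genes with a mean of 13 log2 or more, which include Ccl6 and Ccl9, 0 were called in any of the 4 comparisons. Of 295 genes with a mean between 12 and 13, which include Ccl8, 4 were called between tumor and remodeling glands on the Ets2-expressing arrays and 0 on the Ets2-deficient arrays. Whether strong signal compressed differences was not tested.

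Ccl24, which attracts eosinophils and marks alternatively activated macrophages, was lower on both tumor arrays. It read 11.11 and 11.13 log2 on the tumor Ets2-deficient and Ets2-expressing arrays, against 11.78 and 11.70 on the remodeling arrays. Within each tissue the 2 arrays differed by less than 0.1 log2.

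**Figure D1:**
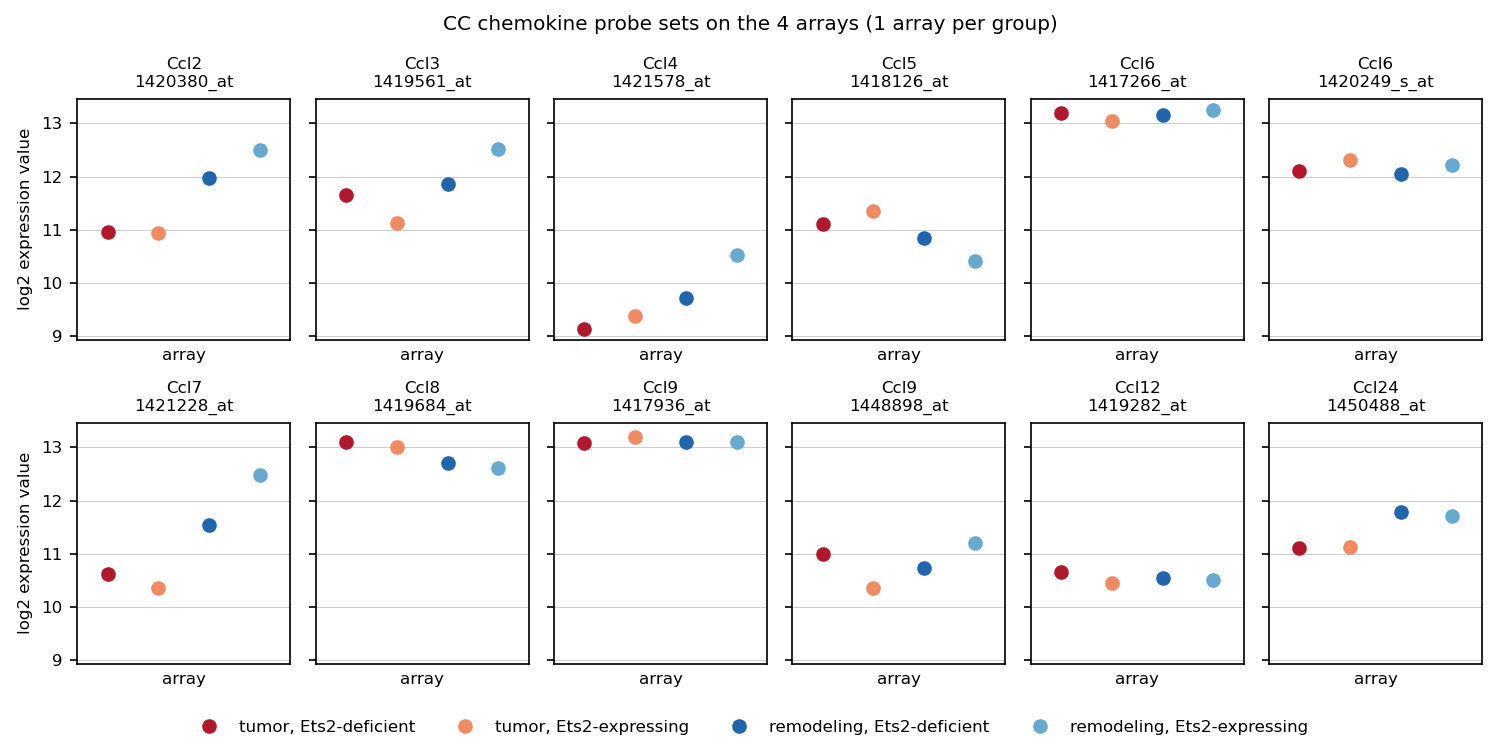
Log2 expression value (y axis, shared) of each of the 12 chemokine probe sets on the 4 arrays, 1 point per array, tumor arrays at left. Ccl2 and Ccl7 stand higher on both remodeling arrays, Ccl5 stands lower there, and Ccl6, Ccl12 and the brighter Ccl9 probe set are level.

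In tumor macrophages, the Ets2-deficient array showed nearly the same chemokine levels as the Ets2-expressing array. Of the 10 chemokines, 0 were called, where 2.99% of 7225 genes counted were (2.23% higher and 0.761% lower). At so small a share, 0 of 10 does not set the members apart from all genes. The median difference was 0.05 log2 over the members (-0.03 after each array was centred on its median) and 0.03 over all genes counted. Only Ccl3 went beyond the probe-set spread by the probe set used, higher by 0.53 log2 (1.44-fold), and 11.4% of all genes counted were higher by at least that much. The second Ccl9 probe set was higher by 0.65 log2. The lowest value was that of Ccl5, at -0.26 log2.

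Neutrophil markers, whose cells also make Ccl3, stood higher on this tumor array. Of 8 measured, 7 were above 0 and 3 were called higher, with S100a8 at 12.80 against 11.32 log2 and S100a9 at 12.98 against 11.51 log2. The summed signal of the list was 17278 on the Ets2-deficient tumor array and 6517 on the Ets2-expressing one, and none of its genes lay below the 25th percentile of an array. All 10 mammary epithelial markers were above 0 and 3 were called higher, with a summed signal of 19196 against 10367. The part of these cells in the Ccl3 value was not tested. As in all such comparisons of sorted populations, fewer cells of a type and less RNA per cell cannot be told apart.

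In remodeling macrophages, Ccl7, Ccl4, Ccl3 and Ccl2 were lower on the Ets2-deficient array, all short of 2-fold, and Ccl5 was higher. The differences were -0.94 log2 for Ccl7, -0.79 for Ccl4, -0.65 for Ccl3 and -0.53 for Ccl2, each beyond the probe-set spread. That is 1.92-fold lower for Ccl7 and 1.44-fold lower for Ccl2. Ccl5 differed by 0.43 log2. Of the 10 members 0 were called, against 6.48% of 7095 genes (1.31% higher and 5.17% lower), which does not set the members apart. Of all genes counted, 5.51% were lower by at least as much as Ccl7, 6.74% as Ccl4, 8.40% as Ccl3 and 10.9% as Ccl2. The other 5 members, Ccl6, Ccl8, Ccl9, Ccl12 and Ccl24, lay between -0.10 and 0.08 log2 by the probe sets used. The second Ccl9 probe set was at -0.47 log2, beyond the probe-set spread. By the probe sets used, the median over all 10 was -0.05 log2 beside 0.05 for all genes counted. Centring each array on its median moved the median of all genes from 0.04 to 0.23 log2 and turned the member median to 0.14. Ccl7 (-0.75), Ccl4 (-0.60), Ccl3 (-0.46) and Ccl2 (-0.34) stayed below 0.

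Markers of stromal and granular cells were lower beside these 4 chemokines in the remodeling comparison. All 12 fibroblast markers were below 0 and 11 were called lower, Loxl1 by -3.46 and Mfap5 by -3.03 log2. Their summed signal was 6205 on the Ets2-deficient array and 21999 on the Ets2-expressing one, with no marker below the 25th percentile of any array. All 9 mast cell markers were below 0 and 5 were called lower, with Fcer1a below the 25th percentile on all arrays and a summed signal of 544 against 2043. Of 8 neutrophil markers 6 were below 0 and 1 was called lower, with a summed signal of 9070 against 13593. Fibroblasts, mast cells and neutrophils can all make such chemokines, and their part in the lower values was not tested. Of 14 T and NK cell markers, 11 were below 0 and 2 above, and 7 were bright enough to count. Their summed signal was 3548 on the Ets2-deficient array and 4145 on the Ets2-expressing one. The part of these cells in the higher Ccl5 was not tested.

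**Figure D2:**
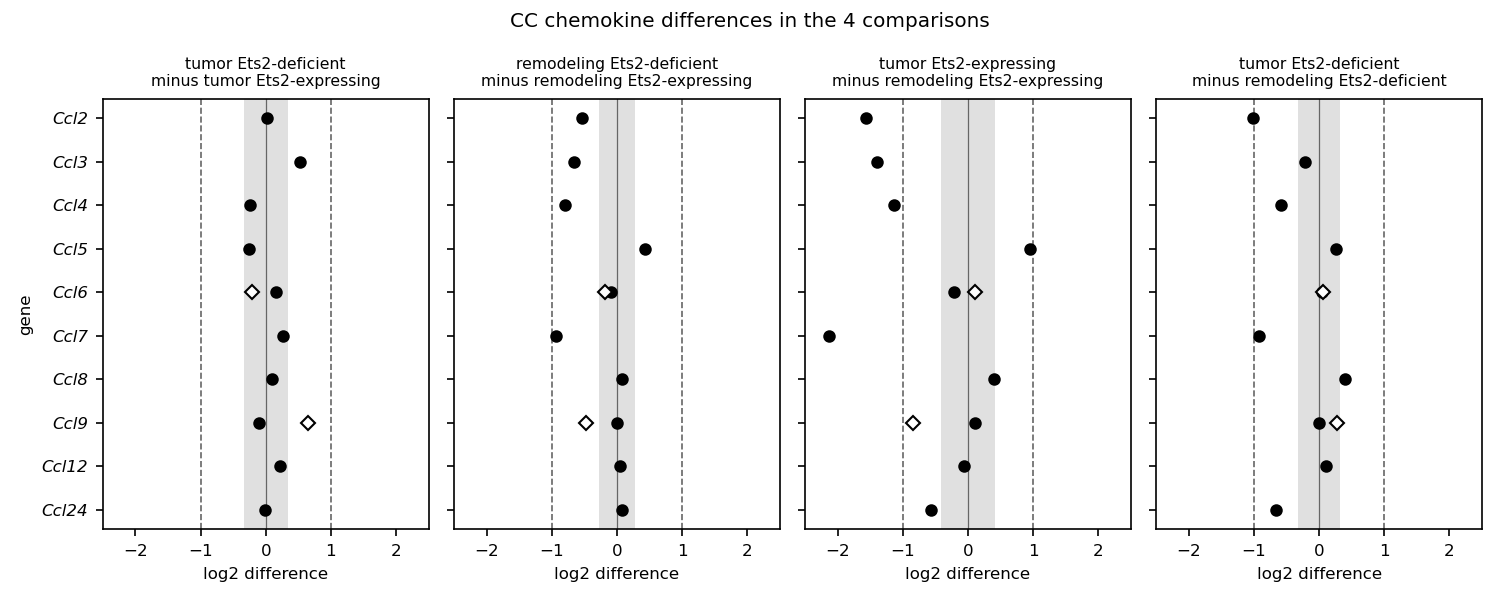
Log2 difference (x axis) of each chemokine in the 4 comparisons, filled circles for the probe set used and open diamonds for the second probe sets of Ccl6 and Ccl9. The grey band is the pooled probe-set SD either side of 0 and dashed lines mark 2-fold. No member passes 2-fold in the 2 Ets2 comparisons, whereas Ccl2, Ccl3, Ccl4 and Ccl7 lie below -1 in the comparison of tumor with remodeling glands on the Ets2-expressing arrays.

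Between the tissues, on the Ets2-expressing arrays, 4 of the 10 chemokines were called lower in tumor macrophages and 0 higher. In this comparison 5.2% of 7253 genes were called lower, 6.18% higher and 11.4% in either direction. Ccl7 was 4.37-fold lower (-2.13 log2), Ccl2 2.95-fold (-1.56), Ccl3 2.64-fold (-1.40) and Ccl4 2.21-fold (-1.14). For Ccl7, 0.620% of all genes counted were lower by as much. Ccl5 was higher by 0.96 log2 (1.94-fold), just short of the call, and Ccl24 was lower by 0.57 log2. Ccl8, Ccl9, Ccl12 and Ccl6 lay between -0.22 and 0.39 log2 by the probe sets used, within the probe-set spread. The second Ccl9 probe set was lower in tumor, at -0.845 log2, beyond that spread. The median over the members was -0.39 log2 beside 0.08 over all genes counted. Quantile normalization brought Ccl5 to 1.02 log2 and so past the call.

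Large differences are less common among strong signals, which bears on how the 4 calls read against the share over all genes. Of 708 genes with a mean between 11 and 12 log2, 11 were called in this comparison, and Ccl2, Ccl3 and Ccl7 were 3 of them. Ccl4, with a mean of 9.68 log2, fell among 1277 genes of which 81 were called.

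On the Ets2-deficient arrays the tissue difference was smaller for Ccl2, Ccl3, Ccl4 and Ccl7, and Ccl2 alone was called lower in tumor macrophages. Of 7203 genes, 1.61% were called lower, 7.61% higher and 9.22% either way. Ccl2 was 2.02-fold lower (-1.02 log2), at the edge of the call. Ccl7 followed at -0.92, Ccl24 at -0.67 and Ccl4 at -0.59 log2, all beyond the probe-set spread, while Ccl3, at -0.22, was within it (-0.54 and beyond it after centring on array medians, -0.45 after centring on hybridization controls). The member median was -0.11 log2 beside 0.06 for all genes counted. After centring on array medians the member median was -0.43, nearly that on the Ets2-expressing arrays (-0.44). Centring on array medians moved the median of all genes from 0.01 to -0.31 log2, which lowered Ccl7 to -1.24 and Ccl2 to -1.34, so that 2 members were called. The same centring brought Ccl5 from 0.27 to -0.05 log2, so its direction in this comparison depended on the scaling. The tissue comparisons share no array with each other, but each shares arrays with both Ets2 comparisons.

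The Ets2 difference in tumor minus that in remodeling glands was at least 1 log2 for 2 members, Ccl7 (1.20) and Ccl3 (1.18), both positive. Of 7473 genes, 8.5% reached it in that direction, 2.94% in the other and 11.4% in either. After centring on array medians, neither reached 1 log2, at 0.93 and 0.91. This difference of differences has no error estimate from samples.

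Cell type markers differed strongly between tumor and remodeling arrays. Fibroblast markers went with the lower Ccl2 and Ccl7 on the Ets2-expressing arrays, where 12 of 12 were below 0 and 7 were called lower in tumor, Dcn by -2.06 and Mfap5 by -1.75 log2. On the Ets2-deficient arrays they ran the other way: 12 of 12 were above 0 and 5 were called higher in tumor, Mfap5 by 1.91 and Col6a1 by 1.90 log2, while Ccl2 and Ccl7 were again lower. Their summed signal was 11065 and 10922 on the tumor arrays (Ets2-deficient, then Ets2-expressing), against 6205 and 21999 on the remodeling arrays. For mast cell markers the sums were 721 and 845 against 544 and 2043. For neutrophil markers the sums were 17278 and 6517 against 9070 and 13593, which puts the arrays in a different order from Ccl2 and Ccl7.

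Eosinophil markers were lower on both tumor arrays, as Ccl24 was. All 4 markers bright enough to count were called lower in each tissue comparison. On the Ets2-deficient arrays Ccr3, the receptor for Ccl24, differed by -3.07 and Siglecf, a sialic acid-binding lectin of eosinophils, by -1.65 log2. On the Ets2-expressing arrays the differences were -2.79 and -1.82 log2. The list's summed signal was 612 and 698 on the tumor arrays against 1872 and 2184 on the remodeling arrays, with Prg2, which encodes the eosinophil granule major basic protein, below the 25th percentile on all 4. The part of eosinophils in the Ccl24 values was not tested.

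T and NK cell markers had a larger summed signal on both tumor arrays. Ccl5 was higher in tumor by 0.96 log2 on the Ets2-expressing arrays. On the Ets2-deficient arrays it differed by 0.27 log2, within the probe-set spread, and by -0.05 after centring on array medians. Of the T and NK cell markers, 7 of 14 were above 0 on the Ets2-expressing arrays. Of these 1, the T cell receptor subunit gene Cd3g, was called (1.33 log2). On the Ets2-deficient arrays 11 of 14 were above 0 and Nkg7, a granule protein gene of cytotoxic cells, was called (1.89). Their summed signal was 5215 and 5624 on the tumor arrays (Ets2-deficient, then Ets2-expressing), against 3548 and 4145 on the remodeling arrays, and Ncr1 lay below the 25th percentile on all 4. Mammary epithelial markers, 10 of 10 above 0 in both tissue comparisons, had sums of 19196 and 10367 against 407 and 791. Endothelial markers had sums of 349 and 372 against 284 and 483. What these cells contributed to the chemokine values was not tested.

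**Figure D3:**
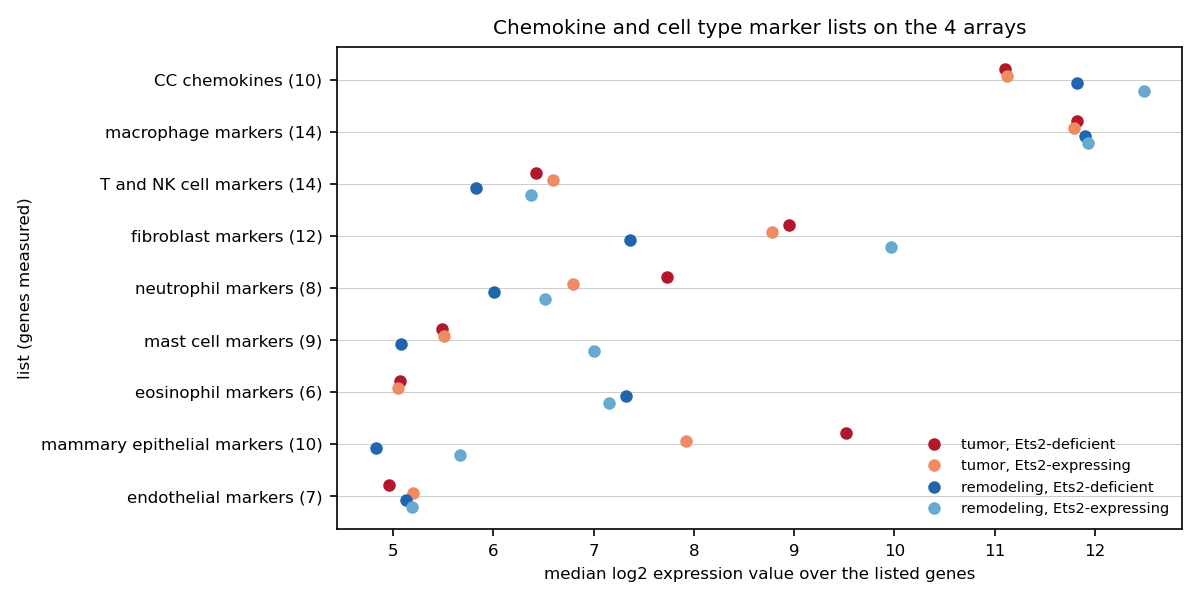
Median log2 expression value (x axis) of the 10 chemokines and of 8 cell type marker lists on each array, 1 coloured point per array, with tumor arrays drawn above remodeling arrays in each row. Macrophage markers stay between 11.80 and 11.93, while fibroblast markers span 7.36 to 9.97 and mammary epithelial markers 4.82 to 9.52.

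Of the receptor genes listed, 7 were measured, and 3 to 5 of them were bright enough to count in a comparison. In tumor macrophages 0 of the 3 counted were called between Ets2 labels, and in remodeling macrophages 1 of 5 was called lower on the Ets2-deficient array, the chemokine-binding decoy Ackr1 (5.45 against 6.68 log2). Between tissues, Ackr1 (-1.03 log2) and Ccr3 were called lower in tumor on the Ets2-expressing arrays, 2 of 5 counted, and Ccr3 on the Ets2-deficient arrays, 1 of 4 counted. Ccr2, the receptor for Ccl2, Ccl7 and Ccl12, was bright on all arrays, at 10.15 and 10.27 log2 on the tumor arrays and 10.06 and 9.40 on the remodeling arrays, again Ets2-deficient first. Its lowest value was on the array where Ccl2 and Ccl7 were highest. Ccr1 ran the other way in the remodeling comparison, at 9.76 on the Ets2-deficient and 10.37 log2 on the Ets2-expressing array. Ccr8 lay between 3.79 and 4.00 log2 on all arrays, below their 25th percentiles.

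Other CC chemokines, which mainly attract lymphocytes, dendritic cells or eosinophils, included large differences in both directions. Of 10 listed, 8 were measured. Ccl17, a T cell attractant made by dendritic cells, and the eosinophil attractant Ccl11 were the 2 called lower on the remodeling Ets2-deficient array, by -2.31 and -2.52 log2. Ccl17 read 10.23 and 9.31 log2 on the tumor arrays, against 7.31 and 9.62 on the remodeling arrays, and was called higher in tumor on the Ets2-deficient arrays (2.92). Ccl22, which shares the receptor Ccr4 with Ccl17, was called higher in tumor on the Ets2-expressing arrays (1.18), where Ccl11 was called lower (-1.54). In the tumor Ets2 comparison 4 of the 8 were bright enough to count, and 0 were called.

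The 4 chemokines called between tissues are 2 pairs of neighbouring genes. In the RefSeq table of assembly GRCm38.p6, 9 of the 10 genes lie on chromosome 11 and Ccl24 on chromosome 5. The first run of protein-coding genes on chromosome 11 is Ccl2, Ccl7, Ccl11, Ccl12, Ccl8 and Ccl1, and the second is Ccl5, Ccl9, Ccl6, Ccl3 and Ccl4. On the Ets2-expressing arrays Ccl2, Ccl7 and their neighbour Ccl11, no member here, were called lower in tumor, and the next genes, Ccl12 and Ccl8, were not. At the end of the second run Ccl3 and Ccl4 were called lower, and Ccl9 and Ccl6 beside them were not. On the Ets2-deficient arrays Ccl11 was not lower (0.53 log2), although Ccl2 and Ccl7 were at -1.02 and -0.92.

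**Figure D4:**
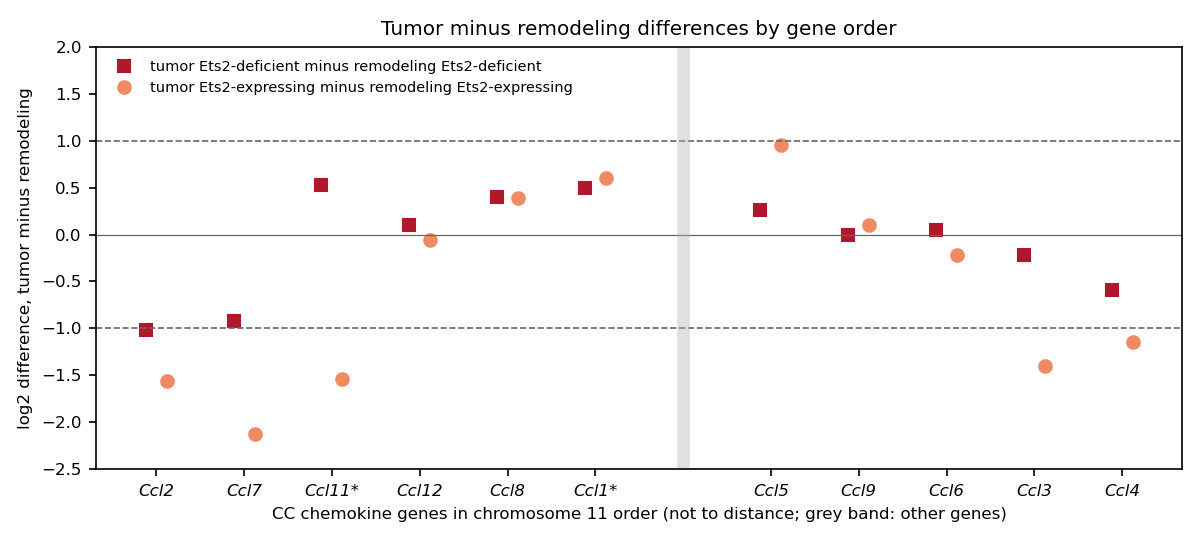
Tumor minus remodeling log2 difference (y axis) of the CC chemokine genes on chromosome 11, placed in gene order and not by distance, with squares for the Ets2-deficient and circles for the Ets2-expressing arrays. Asterisks mark genes outside the 10 described, the grey band stands for other genes between the runs, and dashed lines mark 2-fold. On the Ets2-expressing arrays the points below -1 are Ccl2, Ccl7 and Ccl11 at one end and Ccl3 and Ccl4 at the other.

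Over the 4 arrays, the profiles of the members, each centred on its own mean, were alike in some pairs. Of 45 pairs the closest was Ccl6 with Ccl12, both level, with a root mean square difference of 0.077 log2. Ccl2 and Ccl7, neighbours in the genome, differed by 0.206 log2. Outside the family, the genes nearest to Ccl7 among 7463 were Bcl6b, a transcriptional repressor (0.086 log2), Tesc, a calcium-binding protein gene (0.106), and D16Ertd472e (0.137). Nearest to Ccl2 were the deacetylase gene Sirt1 (0.081), the vascular growth factor gene Vegfa (0.090) and Mlxip, a glucose-responsive transcription factor gene (0.095). Vegfa, for example, read 7.49 and 7.24 log2 on the tumor arrays, against 8.37 and 9.0 on the remodeling arrays. With 4 arrays, many genes can share such a profile, and the likeness is a description.

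Promoter windows were at hand for 5 of the 10 genes (Ccl3, Ccl6, Ccl8, Ccl9 and Ccl12), from RefSeq, assembly GRCm38.p6. The 250 bases before the annotated start are shown for Ccl3, which was called lower in tumor, and for Ccl12 and Ccl8, family members close to Ccl2 and Ccl7 in the genome that were not called. Capitals mark AGGAA, the core that ETS factors such as Ets2 bind with 1 flanking base, or its reverse complement TTCCT. The windows are chr11:83649379-83649628 on the minus strand for Ccl3, chr11:82101595-82101844 on the plus strand for Ccl12 and chr11:82114935-82115184 on the plus strand for Ccl8.
Ccl3: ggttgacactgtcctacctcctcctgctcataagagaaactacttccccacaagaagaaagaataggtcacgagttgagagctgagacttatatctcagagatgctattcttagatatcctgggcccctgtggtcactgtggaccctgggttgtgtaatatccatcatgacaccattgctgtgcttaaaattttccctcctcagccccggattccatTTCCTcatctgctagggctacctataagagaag
Ccl12: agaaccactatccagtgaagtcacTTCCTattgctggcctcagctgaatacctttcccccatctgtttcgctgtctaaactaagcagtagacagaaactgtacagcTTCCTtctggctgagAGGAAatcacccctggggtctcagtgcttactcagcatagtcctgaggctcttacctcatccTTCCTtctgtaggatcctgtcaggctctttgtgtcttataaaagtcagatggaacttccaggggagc
Ccl8: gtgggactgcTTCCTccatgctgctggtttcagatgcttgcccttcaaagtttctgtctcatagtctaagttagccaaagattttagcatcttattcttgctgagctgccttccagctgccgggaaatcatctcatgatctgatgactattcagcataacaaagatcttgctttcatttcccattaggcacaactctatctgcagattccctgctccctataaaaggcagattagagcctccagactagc
The AGGAA core, searched on both strands, was found 1 time for Ccl3, 4 times for Ccl12, 1 time for Ccl8, 2 times for Ccl6 and 0 times for Ccl9. It is common, with at least 1 match in 60.3% of 32851 promoter windows of the same length. Whether these matches bear on the expression values was not tested. TATAAA, the TATA box, was found at -31 from the start of Ccl12, at -32 for Ccl8 and at 3 places for Ccl9, against 12.4% of all windows. TGANTCA, an AP-1 element, was found in Ccl9 only, against 6.75% of all windows. A kappa-B motif and an interferon response motif were found in 0 of the 5 windows, against 17.6% and 2.98% of all. Ccl12 and Ccl8 shared 147 of 250 bases (58.8%) in a global alignment, the most of the pairs among the 5 windows, where the others shared 48.4% to 55.2%.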

How the data were processed

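RNA of YFP-sorted macrophages was purified on microprep columns, and about 10 ng was amplified as cDNA (NuGEN Ovation SPIA) and labelled with biotin, per the labels. The deposited values are log2 expression values of 4 Affymetrix arrays of 22690 probe sets. GCOS and RMA are listed as tools, per the submitters' processing notes. Their versions, order and roles, and whether these 4 arrays alone were normalized together, are not given in the sources used here. The values were used as deposited, and 0 per-sample columns were left out. Values span 2.75 to 14.9 log2. The number of arrays limits the precision, besides the probe-set spread and the scaling.

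The array annotation names exactly 1 gene for 20380 probe sets without controls, and 20351 of those matched a RefSeq gene by Entrez identifier. Each gene was represented by its brightest probe set on average, as members were, and second probe sets of members are given beside it. Differences were computed in Python 3.11.15 with pandas 2.3.3 and numpy 2.4.6, and promoters were aligned with Biopython 1.88. Calling was tested on simulated data with changes larger than 2-fold, as a check of the code and not of the calls reported here. With 1 array per group there were no replicates and no test was run, so log2 differences stand without p-values. The 9 alternative settings were array centring on medians or on hybridization controls, quantile normalization, 1.5-fold and 3-fold thresholds, no or a 75th percentile brightness limit, and the mean or the lowest-signal probe set. Members, lists and names were chosen with earlier results of these data known. From each list at most 2 genes per comparison were named, those farthest past 2-fold, for the 2 members of widest range the 3 genes of most alike profile, and the receptors Ccr1, Ccr2 and Ccr8, Prg2, Ncr1, Fcer1a and Itgam were named after their values were seen. The brightness bins were added after the data were seen.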

Additional observations from a re-analysis of the deposited data

Results flagged for a closer look

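The Ets2 difference had opposite signs in tumor and remodeling macrophages for Ccl3 and for the second probe set of Ccl9, each beyond the probe-set spread of its comparison. Ccl3 differed by 0.53 log2 in tumor and by -0.65 in remodeling glands, a contrast of 1.18 log2. The second Ccl9 probe set differed by 0.65 and -0.47, a contrast of 1.11 log2, while the brighter Ccl9 probe set differed by -0.11 and -0.004. With 1 array per group these differences were not tested.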

How the results depend on the processing

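The count of called members in the tumor Ets2 comparison was 0 under all 9 alternatives, also at 1.5-fold, where 15.3% of all genes counted were called. In the remodeling Ets2 comparison it was 0 except at 1.5-fold, where 3 were called (Ccl3, Ccl4 and Ccl7) beside 16.3% of all genes counted. Between tissues on the Ets2-expressing arrays it was 5 at 1.5-fold (29.8% of all genes) and 5 after quantile normalization (11.4%). At 3-fold it was 1 (Ccl7), beside 4.37% of all genes, and under the other settings it was 4. On the Ets2-deficient arrays it was 2 (Ccl2 and Ccl7) with arrays centred on their medians or on the hybridization controls, 4 at 1.5-fold (23.7% of all genes) and 0 at 3-fold (4.85%), against 1 as reported. For the contrast of the Ets2 differences it was 0 after median centring (13.2% of all genes) and 0 at 3-fold (4.67%), against 2 as reported. It was 3 at 1.5-fold (Ccl3, Ccl5 and Ccl7, beside 28.1% of all genes). With the lowest-signal probe set it was also 3 (Ccl3, Ccl7 and Ccl9, beside 13.3%). Of 250 alternative values of single members, 8 moved by more than the probe-set spread, all for Ccl6 and Ccl9 through the choice of probe set, and 0 reversed a called value. Between tissues on the Ets2-deficient arrays, median centring lowered all members by just under that spread. This shift turned Ccl5, Ccl6 and Ccl12 below 0. Median centring moved the share of higher genes among all called in the tumor Ets2 comparison from 74.5% to 58.1%, in the remodeling one from 20.2% to 39.5% and between tissues on the Ets2-deficient arrays from 82.5% to 50.8%. In the contrast it moved that share from 74.3% to 43.5%. No paired analysis was possible because no result comes from a test and each group has 1 array, with no replicate numbers to pair. All members were well above background, so low signal did not limit them.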

Other observations

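Targets and feedback inhibitors of NF-kappa-B, the factor that induces inflammatory chemokines in activated macrophages, were mostly below 0 in all 4 comparisons. Of 12 measured, 10 were below 0 in the remodeling Ets2 comparison (median -0.45 log2). On the Ets2-expressing arrays 10 were lower in tumor than in remodeling macrophages (-0.60). The cytokine gene Il1b, like Ccl3, was lowest on the Ets2-expressing tumor array and highest on the Ets2-expressing remodeling array, at 11.66 and 11.07 log2 on the tumor arrays (Ets2-deficient, then Ets2-expressing) and 11.46 and 11.93 on the remodeling arrays. It was chosen after its values were seen. In the tumor Ets2 comparison, where Ccl3 was higher, 8 of the 12 were below 0 (median -0.19), and between tissues on the Ets2-deficient arrays 10 were (-0.23). No gene of this list was called in any of the 4 comparisons.

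Interferon response genes, a class that Ccl5 and Ccl12 also join in stimulated macrophages, had medians of -0.26 log2 in the tumor and 0.28 in the remodeling Ets2 comparison, 0.38 between tissues on the Ets2-expressing arrays and -0.19 on the Ets2-deficient ones. On the Ets2-expressing arrays 3 of 12 were called higher in tumor, among them the regulator Irf7 (1.23), and Oasl1 was called lower (-1.33). Oasl1 was also called lower in the remodeling Ets2 comparison (-1.36). Of 12 immediate early genes that tissue dissociation induces, 0 were called in each comparison. In the tumor Ets2 comparison 10 were below 0 (median -0.20 log2), and between tissues on the Ets2-deficient arrays 11 were (-0.25). In the remodeling Ets2 comparison and between tissues on the Ets2-expressing arrays 9 were above 0 (0.09 and 0.13). Interleukin-4 response genes had medians from -0.06 to 0.12, with Arg1 higher in tumor by 2.78 log2 on the Ets2-deficient and 2.46 on the Ets2-expressing arrays. Resident macrophage genes had medians from -0.25 to 0.01, and Lyve1 was called lower in tumor on the Ets2-expressing arrays (-1.32).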
